A study of Mus musculus with 2 samples.

Results

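The Sfmbt2 microRNA cluster comprises the 119 genes that GENCODE M21 annotates as microRNA inside the gene Sfmbt2 on mouse chromosome 2, on the strand of that gene, among 2202 microRNA genes counted in all. Members were chosen by position alone, without use of their counts. By symbol, 29 belong to the Mir669 subfamily, 23 to Mir466, 14 to Mir467 and 5 to Mir297, and 48 carry only a Gm symbol, which marks a predicted gene. Counts came from microRNA-seq of total RNA of tissue labelled layer of hippocampus from female B6CASTF1/J mice, hybrids of the first generation between C57BL/6J and CAST, at 10 days of age. The series has 1 group of 2 biological replicates, and the labels name a separate set of 3 females for each library under a shared donor entry. No treatment or mutation is labelled, and no comparison between conditions could be made.

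MicroRNAs are cut from hairpin precursors and guide repression of messenger RNAs, mainly through the seed near their 5′ end. Sfmbt2 encodes a Polycomb-group protein with malignant brain tumor repeats. In mouse the gene is imprinted and expressed from the paternal allele in extraembryonic tissue, and its intronic microRNAs are specific to rodents, arose by tandem duplication and are best known from placenta and embryonic stem cells. The counts used here do not separate the parental alleles. Reads were placed on the mm10 reference, and differences of CAST from it in sequence or copy number within the cluster were not examined.

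All 119 hairpins lay in intron 10 of the long Sfmbt2 transcript (GRCm38, chr2:10461473-10523944, plus strand), and 0 overlapped an annotated exon. They filled chr2:10465287-10518279, a span of 53.0 kb in an intron of 62.5 kb, with a median of 294 bp between successive starts. Hairpins covered 23.1% of that span and were 73 to 127 nt long. The centre of the cluster repeats a block in which a Mir467a hairpin is followed by Mir466 and Mir669 hairpins and by Gm genes. The 10 copies of Mir467a lay a median of 2462 bp apart. The hairpin sequences were close copies of each other: 47 members, 26 named and 21 Gm, were identical over their whole length to at least 1 further member, and the 119 genes held 88 different hairpins. The median identity to the closest other member was 97.6%, with a range of 70.2% to 100%.

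The hairpins were rich in alternating purines and pyrimidines. Steps from a purine to a pyrimidine or back, other than between C and G, made up a median of 75.6% of all dinucleotides in a member, against 35.1% over all microRNA genes. The median was 84.3% in the Mir466 subfamily, 81.2% in Mir297, 75.6% in both Mir467 and Mir669 and 62.2% in Gm members. Median GC content was 37.3%, against 50.8% over all microRNA genes. The trait is not particular to the cluster. Hairpins of genes with these numbers that are encoded elsewhere had a median of 84.6% such steps and a median GC content of 38.9%. Alternating steps are also seen in their mature microRNAs, whose own step share and GC content were not computed. Of 10 such genes outside Sfmbt2, 8 had a mature sequence in RefSeq (GRCm38.p6), and 5 of these are shown, with the seed (bases 2 to 8) in capitals, because they let the repeats of Mir466, Mir467 and Mir669 relatives be read letter by letter.
mmu-miR-466q: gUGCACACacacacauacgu
mmu-miR-466k: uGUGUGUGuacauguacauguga
mmu-miR-467g: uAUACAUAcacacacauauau
mmu-miR-467h: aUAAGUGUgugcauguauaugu
mmu-miR-669n: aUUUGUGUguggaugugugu
The 8 mature sequences, each from a different gene, held 8 different seeds. They do not all come from the same arm of the hairpin, and opposite arms were not compared. Whether genes with a shared number also share a seed was therefore not settled. Mir466q (chr3:28419988-28420007, plus strand for the mature part) lies in an intron of Tnik on its strand and had 5 counts in replicate 1 and 4 in replicate 2. It was the only gene of the 10 with a count. Mir466k (chr3:85467396-85467418, plus) and Mir669n (chr3:115979905-115979924, plus) lie opposite introns of Gm37240 and Slc30a7, Mir467g (chr5:34732872-34732892, minus) lies opposite an intron of Grk4, and Mir467h (chr9:115381898-115381919, plus) lies outside other annotated genes. These 4 genes had 0 counts in both libraries.

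Replicate 1 held 5479267 sense counts on microRNA genes and replicate 2 held 3563226. A read with several possible places in the genome enters the count of no gene, and such reads made up 43.2% of all reads in replicate 1 and 39.3% in replicate 2. How many of them came from the Sfmbt2 cluster cannot be read from the counts, so that levels below are those of uniquely placed reads and are lower limits for hairpins with copies. The tissue label was checked with 15 microRNA genes, in CPM (sense counts scaled to a library total of 1000000). Of the neuronal genes, Mir132, Mir128-1, Mir138-1, Mir137 and Mir128-2 stood between 2397 and 8030 CPM, but the 3 copies of Mir124a stood between 0.877 and 3.72 CPM and the 3 copies of Mir9 between 3.19 and 58.3 CPM. Those 6 copies had a median of 65.9% of their sequence windows found in no other microRNA gene, a measure explained below, against 96.4% for the other 5 genes, and the part of this in their levels was not tested. The liver microRNA Mir122 stood at 34.5 CPM, and of the muscle microRNAs Mir206 stood at 68.6 CPM while Mir1a-1 and Mir133a-1 were at 0. These genes do not tell hippocampus from other brain regions.

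Uniquely placed reads of the cluster came almost entirely from 8 of its genes, 5 of the Mir669 subfamily and 3 of the Mir467 subfamily. Together the 119 genes held 13763 sense counts in replicate 1 and 9350 in replicate 2, a share of 0.251% (exact Clopper-Pearson 95% interval 0.247% to 0.255%) and 0.262% (0.257% to 0.268%) of the counts on microRNA genes. The mean share was 0.257% ± 0.00793 (SD, n = 2). The intervals cover counting error only, as they are computed from the counts within each library. These reads carry no molecular identifiers, so repeat reads of a molecule cannot be told apart and the intervals may be too narrow. Under the minimum of 10 counts in each library, 8 of 119 members (6.72%) were detected, against 19.5% of all microRNA genes, and they held 99.8% ± 0.0615 of the cluster's counts (SD, n = 2). A further 11 members had between 1 and 8 counts in a library, 35 counts in all, and 100 members had none. For uniquely placed reads, taking 3 counts as the limit, a count of 0 allows a level of 0.548 CPM in replicate 1 and 0.842 in replicate 2, and it sets no limit on reads from sequence that a hairpin shares.

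By subfamily, the Mir467 genes held 69.8% ± 3.87 of the cluster's counts (SD, n = 2), with 67.0% in replicate 1 and 72.5% in replicate 2. The Mir669 genes held 30.1% ± 3.93, with 32.9% and 27.3%. The Mir466 genes, the second largest named subfamily, had 5 counts in replicate 1 and 4 in replicate 2 over 23 genes, and 0 of them were detected. The Mir297 genes had 3 and 9 counts over 5 genes. The 48 Gm members had 2 counts in replicate 1 and 1 in replicate 2, so the 71 named genes held all but 3 of the cluster's counts. Of all 1021 microRNA genes with a Gm symbol, 0.784% were detected.

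Mir467d (ENSMUSG00000077021.2, chr2:10507630-10507714) was the leading member, with 6897 counts in replicate 1 and 5321 in replicate 2. Its level was 1259 and 1493 CPM, a mean of 1376 ± 166 CPM (SD, n = 2), and it ranked 98 among 2202 genes. It alone held 50.1% of the cluster's counts in replicate 1 and 56.9% in replicate 2. Without it, the rest of the cluster held 0.119% of the remaining counts.

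Mir467e (chr2:10505721-10505807), the next Mir467 gene upstream and its closest relative by sequence, had 1895 and 1161 counts in replicates 1 and 2, at 346 and 326 CPM. The hairpins of Mir467d and Mir467e were 92.0% identical, while Mir467d was the higher of them in both libraries. Mir467c (chr2:10473931-10474027), the third detected Mir467 gene, lay on the other side of the repeated blocks and had 434 and 299 counts, at 79.2 and 83.9 CPM. The remaining 11 genes of the subfamily, Mir467b and the 10 copies of Mir467a, held 1 count each for Mir467b and Mir467a-1, both in replicate 1, and 0 for the others.

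Among the Mir669 genes, Mir669c (ENSMUSG00000076118.1, chr2:10509296-10509404) led with 2343 counts in replicate 1 and 1326 in replicate 2. It stood at 428 and 372 CPM, a mean of 400 ± 39.2 CPM (SD, n = 2), and was second in the cluster. Mir669o (chr2:10514300-10514395) had 1478 and 857 counts, at 270 and 241 CPM. Mir669l (chr2:10468971-10469068) had 517 and 281 counts, at 94.4 and 78.9 CPM. Mir669e (chr2:10467495-10467613) had 136 and 70 counts, at 24.8 and 19.6 CPM. Mir669h (chr2:10518155-10518279), the last hairpin of the cluster, had 47 and 16 counts, at 8.58 and 4.49 CPM, and was the detected member nearest the minimum.

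By uniquely placed reads, the order was Mir467d, Mir669c, Mir467e, Mir669o, then Mir669l and Mir467c, then Mir669e and Mir669h, as the plot of both libraries shows. These levels are lower limits for hairpins with copies, so the order with all reads included cannot be read from them. Mir669l and Mir467c changed places between the libraries, with Mir669l higher in replicate 1 and Mir467c higher in replicate 2, and their order was not resolved. The other neighbours in this order kept it in both libraries. Mir669c and Mir467e differed by less in replicate 2 (372 against 326 CPM) than in replicate 1 (428 against 346 CPM), and differences between neighbours were not tested.

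**Figure D1:**
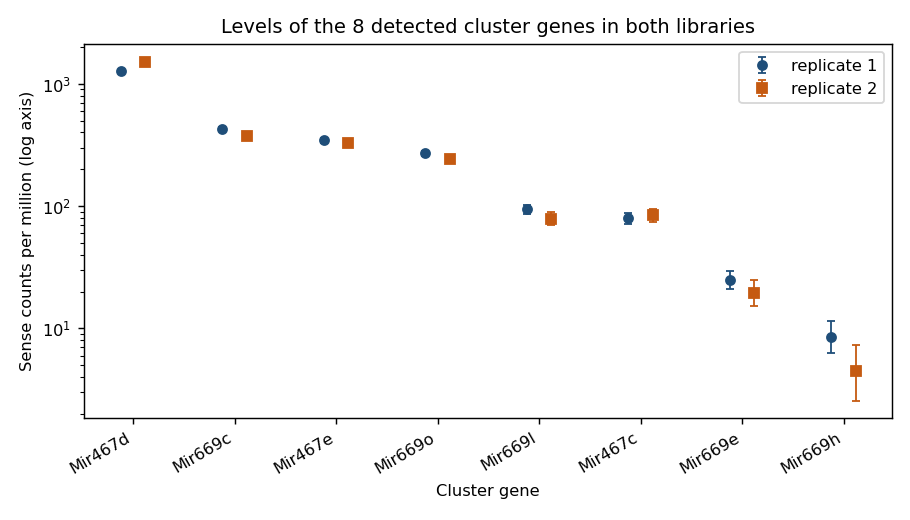
CPM (log axis) of the 8 detected cluster genes in replicate 1 (circles) and replicate 2 (squares), with bars for the exact 95% interval of counting error. Mir467d stood at 1259 and 1493 CPM, above the other 7 genes in both libraries, and the points of Mir669l and Mir467c change order between the libraries.

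Just below the minimum lay Mir297a-2, with 3 counts in replicate 1 and 8 in replicate 2, Mir669f, with 4 and 5, and Mir466h, with 5 and 1. They were the only other members with a count in each library. The remaining 8 members with any count had 1 or 2 in a single library: Gm22072 had 2 in replicate 1, Mir467a-1 and Mir467b had 1 in replicate 1, and Mir466, Mir466g, Mir466n, Mir297c and Gm22925 had 1 in replicate 2. At such counts the libraries could not be told apart. Antisense counts were 0 for all 119 members in both libraries, and counts made without regard to strand equalled the sense counts for each member.

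Counts lay at both ends of the cluster and were nearly missing from its repeated centre. The 17 hairpins up to Mir467c held 1096 counts in replicate 1 and 663 in replicate 2, and 3 of them were detected. The 30 hairpins from Mir467e onwards held 12665 and 8687 counts, 92.5% ± 0.627 of the cluster (SD, n = 2), and 5 were detected. The 72 hairpins between Mir467c and Mir467e, over 30.6 kb (chr2:10474219-10504773), held 2 counts in replicate 1 and 0 in replicate 2. This division was made after the counts were seen and is a description. The 72 hairpins of the centre comprised 34 Gm genes, 16 of the Mir669, 11 of the Mir466 and 11 of the Mir467 subfamily. Their median identity to the closest other member was 100%, against 83.7% for the first 17 and 85.7% for the last 30 hairpins.

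**Figure D2:**
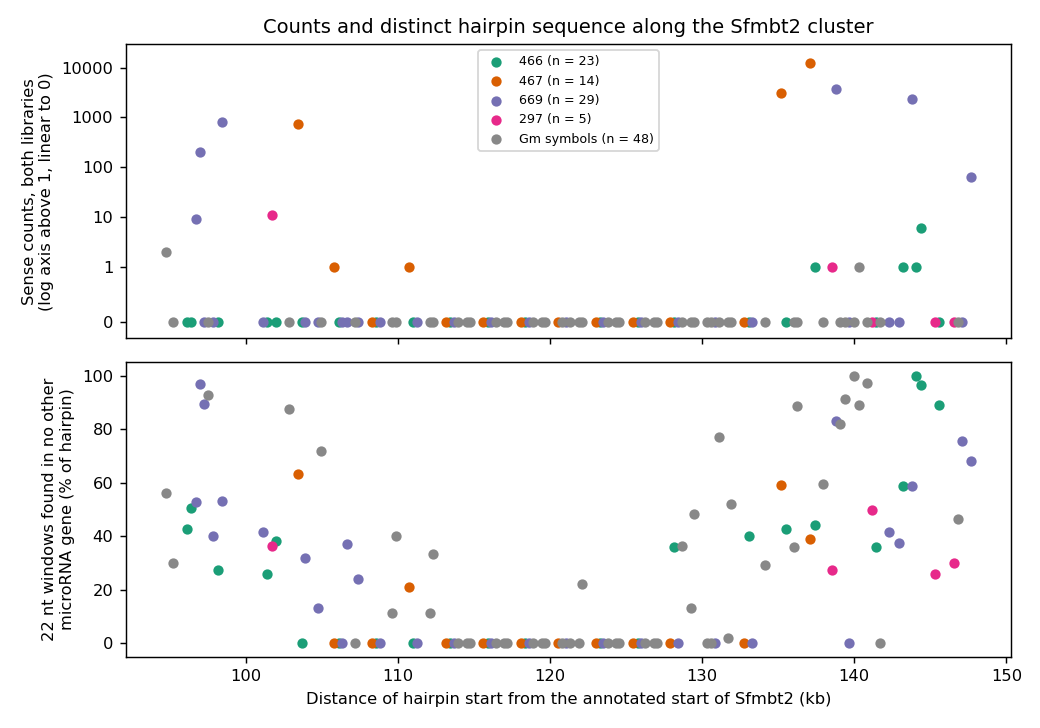
Each point is 1 of the 119 hairpins, placed by its distance in kb from the annotated start of Sfmbt2 and coloured by subfamily. The upper panel gives sense counts summed over both libraries (log axis above 1) and the lower panel the percent of 22 nt windows of the hairpin found in no other microRNA gene. The 72 hairpins of the centre have 2 counts in all, and most of them sit at 0 in both panels.

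How much sequence a hairpin has to itself was measured from the annotated transcripts, independently of the counts. Each hairpin was divided into overlapping windows of 22 nt, about the length of a mature microRNA, and a window was called distinct if it occurred on neither strand of any other annotated microRNA gene. A median of 21.2% of a member's windows was distinct, against 100% over all microRNA genes. In 54 of the 119 members no window was distinct, and 52 of these lay in the centre. Windows were shared with members alone in 89 hairpins and also with genes outside the cluster in 28, while 2 hairpins shared none.

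Most members with distinct sequence were not detected, and neither was any member without it. A 22 nt read that matches a hairpin with no distinct window exactly also matches other places, and it enters no count. The lack of detection among those 54 members therefore says nothing of their expression. Longer reads and reads with mismatches may be placed otherwise and were not examined. Of the 54 members with no distinct window, 0 were detected and Mir467a-1 alone had a count. Of 8 members with up to 25% distinct windows, 0 were detected, of 29 with 25% to 50%, 1 was, of 12 with 50% to 75%, 5 were, and of 16 with more than 75%, 2 were. In the same classes, from lowest to highest, 0.337%, 0.00%, 1.06%, 7.10% and 29.5% of all microRNA genes were detected. These shares include the members. They made up 1 of 2 detected genes in the class of 25% to 50% and 5 of 12 in that of 50% to 75%. The share of the zeros in the cluster that stems from reads with several places was not tested.

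Among the detected members, Mir467d had the lowest share of distinct windows, 39.1% or 25 of 64, and 19 of those 25 were centred 5′ of the middle of the hairpin. Mir467e had 59.1% and Mir467c 63.2%. In the Mir669 subfamily the share was 53.2% in Mir669l, 58.7% in Mir669o, 68.3% in Mir669h, 83.0% in Mir669c and 96.9% in Mir669e. Of these 8 genes, the highest share belonged to Mir669e, at a mean of 22.2 CPM, and the lowest to the leading gene. At least 22 nt were shared between Mir467d and 14 other microRNA genes.

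Several hairpins with mostly distinct sequence had no count. Copies outside annotated transcripts were not searched, and the place of the mature part in these hairpins was not known. A count of 0 here therefore does not show that a hairpin is silent. Of the 16 members with more than 75% distinct windows, 11 were at 0 in both libraries. They were Mir669b, Mir669i, Mir466l and the predicted genes Gm23578, Gm26073, Gm23988, Gm22678, Gm24342, Gm25263, Gm22239 and Gm23542. Mir669b, with 89.5% distinct windows, lies next to Mir669e, which had 96.9% and was detected. Gm22239 had no window in common with another microRNA gene and was at 0, and Mir466g, also with 100% distinct windows, had 1 count in replicate 2. Among the Gm members, 9 had more than 75% distinct windows and 0 of these were detected.

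**Figure D3:**
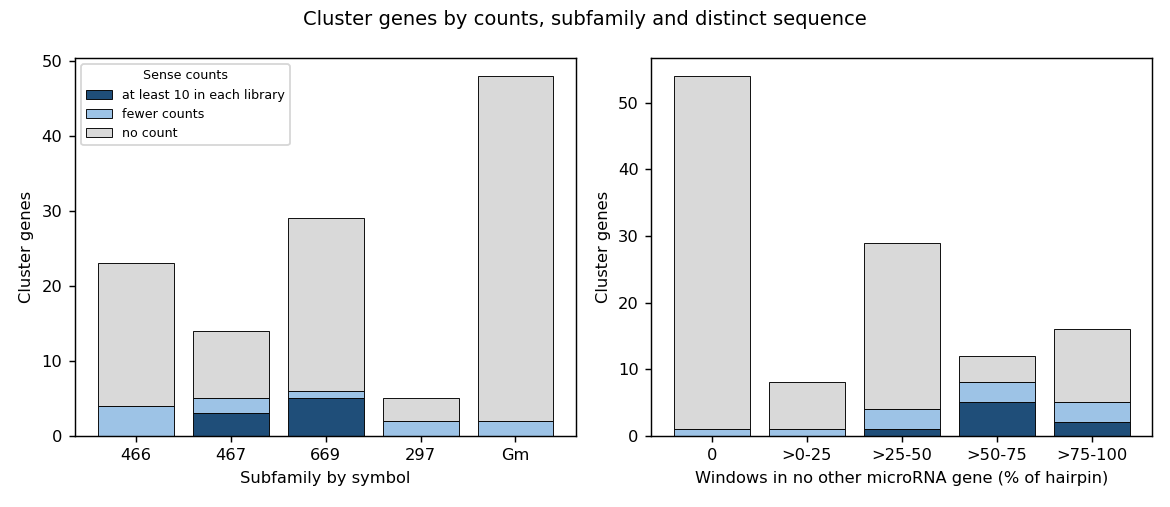
Bars count the cluster genes by subfamily (left) and by the percent of 22 nt windows found in no other microRNA gene (right), divided into genes with at least 10 sense counts in each library, genes with fewer counts and genes with none. Detected genes are limited to the Mir467 (3) and Mir669 (5) subfamilies, and the 54 genes without a distinct window include none.

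Between the libraries, the log2 ratios of the 8 detected members (replicate 2 over replicate 1) ran from -0.97 to 0.19. The test was a two-sided exact binomial test of replicate 2 against replicate 1 on libraries scaled by TMM, with Benjamini-Hochberg adjustment over all 429 detected genes, and it sets the 2 libraries against counting error alone, so that a call says nothing of conditions or of spread beyond these libraries. It called 6 of the 8 members, 1 higher and 5 lower in replicate 2, where 61.3% of all detected genes were called, 28.7% higher and 32.6% lower, so that calls were common and the count is no result about the members. Mir467d was higher in replicate 2, with a log2 ratio of 0.19 and an adjusted p of 7.65e-12 by the exact test. Lower in replicate 2 were Mir669c at -0.26 (adjusted p = 2.76e-07, exact test), Mir669o at -0.23, Mir669l at -0.32, Mir467e at -0.15 and Mir669h at -0.97. The adjusted p of the last 4, by the same exact test, ran from 0.000515 for Mir669o to 0.0247 for Mir669h.

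Mir467c, at 0.02 (adjusted p = 0.900, exact test), and Mir669e, at -0.39 (adjusted p = 0.0992), did not pass. All 5 detected Mir669 genes had a ratio below 0, and of the Mir467 genes Mir467d and Mir467c lay above 0 and Mir467e below. The call of Mir467e was lost when the libraries were scaled by their totals. The median ratio of the 8 genes was -0.24, against 0.05 over all detected genes, and the median absolute ratio was 0.24, against 0.33. None of the 8 ratios reached 2-fold, and that of Mir669h, with 47 and 16 counts, came nearest.

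The Rian and Mirg region of chromosome 12 (chr12:109709060-109747960), an imprinted cluster known from brain, and the group around Mir743 on the X chromosome, known from testis, were set beside the Sfmbt2 cluster as the other large microRNA arrays. In the Rian and Mirg region 35 of 39 genes were detected, with 10.0% ± 0.719 of the counts (SD, n = 2), the median share of distinct windows was 100% and the median of alternating steps 40.0%. In the X chromosome group 0 of 19 genes were detected, although all windows were distinct in 13 of them. The Sfmbt2 cluster, at 0.257%, lay between them in uniquely placed reads, and its median of 21.2% distinct windows was below both. Its share is a lower limit, since reads with several places are left out, and the sets differ in their number of genes. The differences in counts and windows were not tested.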

How the data were processed

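The authors deposited raw read counts per microRNA gene for each of 2 libraries; reads were placed on mm10 and counted on GENCODE M21, per the notes deposited beside the files. Which aligner and counter ran is not given in the sources used here. Of the strand columns, the larger total (column 3) was taken as sense. Rows without a gene were left out; they include unmapped reads (14.2% and 18.0% of reads) and reads at several places.

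CPM are sense counts per 1000000 sense counts on microRNA genes. Detection required 10 counts in each library. Libraries were scaled with TMM (edgeR 4.0.16, factors 0.979 and 1.02) and compared by exact binomial tests (SciPy 1.17.1) with 0.5 counts added for ratios. The binomial and window scripts were tested on simulated data. Windows of 22 nt were searched in annotated microRNA transcripts in place of the planned genome search, since the genome sequence was not used here. Comparison groups joined genes within 10 kb on a strand. RefSeq held mature sequences for 8 relatives and for 0 members by symbol. Named genes are all detected members, those with any count, and members near the minimum; members with distinct hairpins and no count were named after their values were seen. The rule for members uses position alone, but the cluster, lists and tests were proposed with earlier results of these data known. Alternatives were other minimums, strand columns, scalings (DESeq2 1.42.0), denominators, window lengths and leaving out a library.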

Additional observations from a re-analysis of the deposited data

How the results depend on the processing

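The share of the cluster, 0.257%, was 0.273% in counts without regard to strand, whose total is smaller, 0.0950% of all reads, and 0.119% without Mir467d; leaving out a library gave 0.251% to 0.262%. The median share of distinct windows, 21.2%, was 17.3%, 19.8% and 22% with windows of 18, 20 and 24 nt, and 20.5% when other transcripts were searched too, an alternative added after the data were seen. The number of detected members stayed between 6 and 11 under other minimums, and it was 8 with either library alone. The number differing between libraries was 5 or 6 under each scaling, filter and strand setting; Mir467e lost its call under scaling by totals, at a log2 ratio of -0.09. Subfamily shares moved by less than their SD when Gm genes were given the subfamily of the closest named hairpin. Copies of 22 nt or more outside annotated transcripts were not searched, and the origin of reads at several places is unknown. No fit of the library difference could leave out a library, since that leaves 1.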

Other observations

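MicroRNAs of the early embryo and placenta, tissues from which the Sfmbt2 cluster is best known, were listed beside it. Of the 9 genes of the Mir290a to Mir295 cluster on chromosome 7, which is known from embryonic stem cells and trophoblast, 6 had no count, Mir292 had 3 and 1 counts in replicates 1 and 2, Mir293 had 0 and 1, and Mir294 had 0 and 5. Of the Mir302 cluster of pluripotent cells, Mir302d had 14 and 13 counts, Mir302a 7 and 2 and Mir302b 1 and 3, while Mir302c and Mir367 had none, and Mir675, which is cut from H19 RNA, had 1 in each library. All of these hairpins had 100% distinct windows. Mir322, a microRNA of the X chromosome known from placenta and muscle, stood at 1320 ± 142 CPM (SD, n = 2), near the level of Mir467d, and its neighbour Mir503 at 64.9 ± 29.5 CPM.

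The X chromosome group around Mir743 had 59 counts in replicate 1 and 4 in replicate 2. Mir470 held 26 of the counts in replicate 1 and had 0 in replicate 2. This difference was noticed after the values were seen and was not tested.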
